A study of Mus musculus with 15 samples.

Results

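The Sox proteins are transcription factors that bind DNA through a high mobility group domain related to that of Sry. The family was followed here in mouse medulloblastoma, the malignant tumour of the cerebellum, and in sorted cerebellar cells, through every probe set that the array's annotation assigned to Sox1, Sox2, Sox3, Sox4, Sox5, Sox6, Sox8, Sox9, Sox10 or Sox11 alone. That rule gave 28 probe sets for the 10 genes, out of 28898 probe sets with 1 listed gene, which covered 17097 genes. Sox11 had 6 probe sets, Sox4 had 5, Sox5 had 4, Sox6, Sox9 and Sox10 had 3 each, and Sox1, Sox2, Sox3 and Sox8 had 1 each. The arrays were 1-colour Affymetrix HT_MG-430_PM arrays, 1 for each of 15 samples, in 5 groups of 3.

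To make the Myc primary tumours, cerebellar cells that were Cdkn2c-/-, Trp53-/- and Atoh1-GFP were infected with Myc and injected into the cortex of the cerebrum of immunocompromised nude mice, where the tumours formed. Myc secondary tumours arose when sphere cells cultured from those tumours were transplanted orthotopically. As Shh tumours the study took spontaneous medulloblastomas of Cdkn2c-/-; Trp53Fl/Fl; Nestin-Cre mice, in which Cre, driven by the Nestin promoter of neural progenitors, deletes Trp53. Cells sorted by reporter fluorescence formed the GFP-positive and the GFP-negative group, from cerebella of Cdkn2c-/-, Trp53-/-, Atoh1-GFP mice at postnatal day 6. Atoh1 specifies granule neuron progenitors, so the reporter divides those cells and their recent progeny from the other cells of the cerebellum. Every group, the sorted controls included, thus lacked Cdkn2c and had lost Trp53, and no wild-type sample was analysed here. The labels of the sorted samples say spontaneous tumour and the design text says cerebellar cells; the latter was followed. Neither source names the animals behind the arrays, so p-values measure only the spread between these samples.

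Sox genes are grouped by sequence. Sox1, Sox2 and Sox3 (SoxB1) keep neural stem and progenitor cells undifferentiated, and Sox2 is also known as a marker of slowly dividing stem-like cells in Shh medulloblastoma. Sox4 and Sox11 (SoxC) act in committed progenitors and young neurons, where they activate neuronal genes. Sox5 and Sox6 (SoxD) carry no transactivation domain of their own and modulate the action of other Sox proteins. Sox8, Sox9 and Sox10 (SoxE) direct glial development: Sox9 acts in radial glia, Bergmann glia and astrocytes, and Sox10, with Sox8, in the oligodendrocyte lineage.

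All levels are the deposited log2 values of robust multi-array averaging (RMA), and a difference of 1 on this scale is a doubling of signal. A level belongs to its own probe set, so levels of different probe sets do not rank genes by their amount of RNA. Marker signals were summed over probe sets only to compare arrays. The background was set at 4.77, the 95th percentile over 23 nonspecific control probe sets, and where a group mean lies under it the size of a difference is limited by the floor of the array. Unless stated otherwise a gene is represented by its brightest probe set, the one with the highest mean over the 15 arrays. Groups were compared by limma in 1 fit over all groups and all 28898 probe sets, and a probe set is said to rise, fall or change at an adjusted p below 0.05.

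Promoters of 7 of the 10 genes were matched by symbol in the RefSeq table of build GRCm38.p6, and the 250 bases before the transcription start were searched on both strands. Those of 4 genes are shown because they stand for the 2 patterns described next, Sox2 and Sox8 for genes brightest in the GFP-negative cells, and Sox4 and Sox11 for genes bright on every array. Capitals mark a match to the Sox core motif ACAAAG (or CTTTGT on the other strand) in Sox2 and to the E-box CACGTG, a site of Myc-Max dimers, in Sox8. Each runs 5′ to 3′ on the strand of its gene, Sox2 from chr3:34649745-34649994 on the plus strand, and on the minus strand Sox8 from chr17:25570687-25570936, Sox4 from chr13:28953700-28953949 and Sox11 from chr12:27342719-27342968.
Sox2: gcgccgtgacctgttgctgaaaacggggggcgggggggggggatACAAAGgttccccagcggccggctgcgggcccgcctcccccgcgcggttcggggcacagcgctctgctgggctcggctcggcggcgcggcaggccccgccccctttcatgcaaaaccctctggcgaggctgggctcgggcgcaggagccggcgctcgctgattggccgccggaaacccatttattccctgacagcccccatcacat
Sox8: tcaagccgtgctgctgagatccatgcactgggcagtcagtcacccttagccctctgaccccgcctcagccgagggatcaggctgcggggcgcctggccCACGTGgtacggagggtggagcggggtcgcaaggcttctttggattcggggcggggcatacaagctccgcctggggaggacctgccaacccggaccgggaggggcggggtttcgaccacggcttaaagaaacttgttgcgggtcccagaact
Sox4: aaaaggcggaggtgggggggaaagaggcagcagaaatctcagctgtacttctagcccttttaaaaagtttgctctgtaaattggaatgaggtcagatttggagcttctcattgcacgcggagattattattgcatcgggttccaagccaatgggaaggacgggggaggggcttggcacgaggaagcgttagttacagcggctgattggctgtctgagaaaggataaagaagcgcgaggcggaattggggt
Sox11: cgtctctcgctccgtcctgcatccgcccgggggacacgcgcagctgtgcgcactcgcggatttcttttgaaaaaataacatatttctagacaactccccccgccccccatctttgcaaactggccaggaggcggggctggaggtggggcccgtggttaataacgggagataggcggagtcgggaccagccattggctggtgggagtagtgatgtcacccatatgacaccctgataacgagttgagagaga

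The Sox core match of Sox2 begins 206 bases before its start, and the E-box of Sox8 begins 152 bases before its start. Among all 12 promoters of the 7 genes (Sox6 has 6), 6 held a Sox core and 1 held an E-box. Apart from that of Sox2, the promoters with a Sox core all belonged to Sox6, so this count leans on 1 gene with several listed starts. Of the 32851 promoters of the table, 16.5% held a Sox core and 6.02% an E-box. The Gli motif GACCACCCA (TGGGTGGTC on the other strand), bound by the effectors of Shh signalling, was in none of the 12 and in 0.225% of all promoters. A match is a run of letters and not a measured site, and the lack of a match describes only these windows. GC content was 72.0% for Sox2, 65.6% for Sox8, 50.8% for Sox4 and 58.0% for Sox11, with a median of 52.4% over the table. These 4 windows held 27, 18, 11 and 17 CpG dinucleotides in the same order, against a median of 6 over the table.

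Across the 5 groups the family split into 4 patterns of level. Sox4 and Sox11 were bright on all 15 arrays. Sox2, Sox6, Sox8 and Sox10 had their highest group mean in the GFP-negative cells. Sox9 was high in Shh tumours and in the sorted cells and lower in both kinds of Myc tumour, and Sox5 had its lowest mean in the Myc secondary tumours. Sox1, on chromosome 8 at 12395519 to 12399555 in GRCm38.p6, ranged from 3.19 to 4.12, and Sox3, on chromosome X at 60891366 to 60893430, from 3.48 to 4.15. Sox1 and Sox3 lay under the background on all 15 arrays and are not described further. In all, 21 of the 28 probe sets had a group mean above background and 7 had none.

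**Figure D1:**
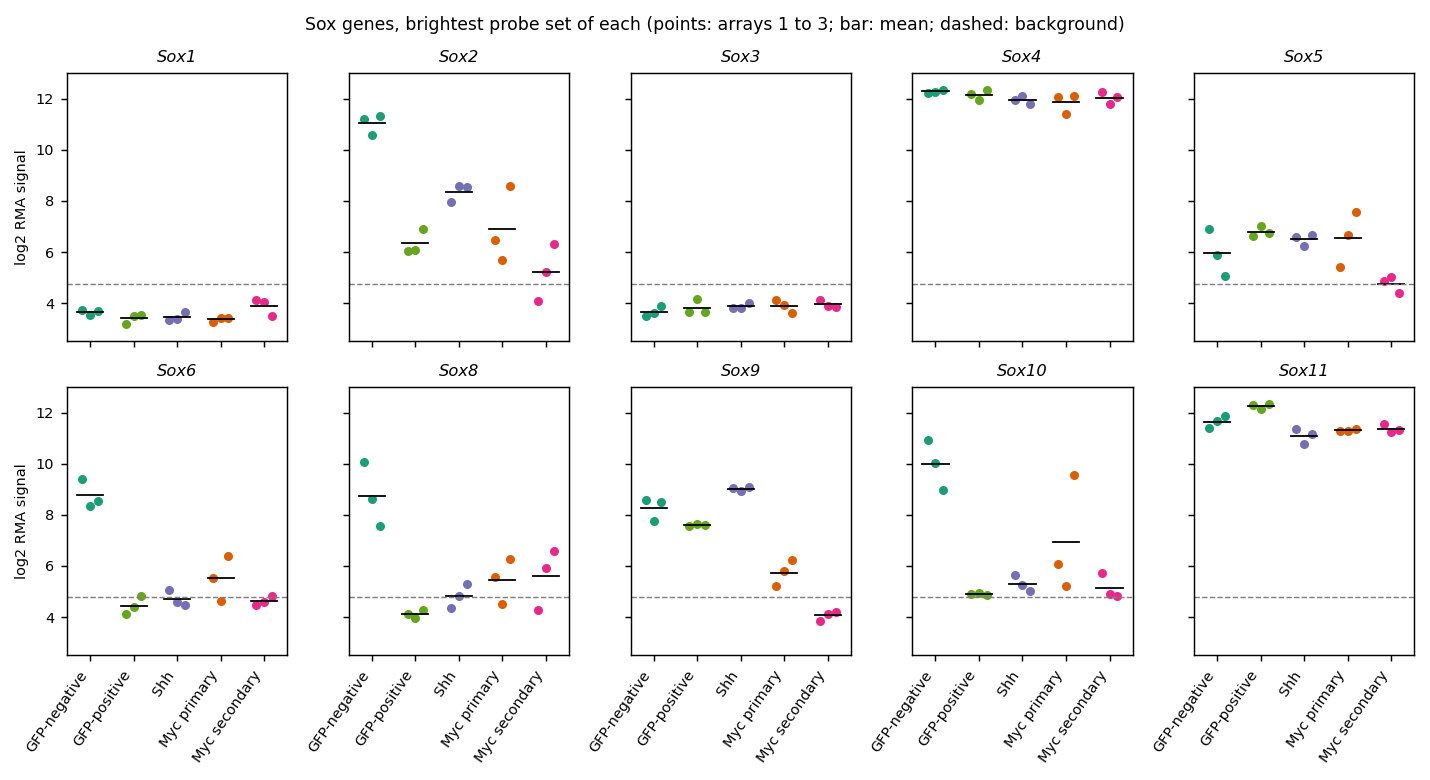
Levels of the 10 Sox genes in the 5 groups. Each panel plots the log2 RMA signal of a gene's brightest probe set (vertical axis), with 1 point per array, a bar at the group mean and a dashed line at the background of 4.77. Sox2, Sox6, Sox8 and Sox10 have their highest mean in the GFP-negative cells, and Sox9 is lower in the Myc primary tumours than in the Shh tumours without overlap.

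**Figure D2:**
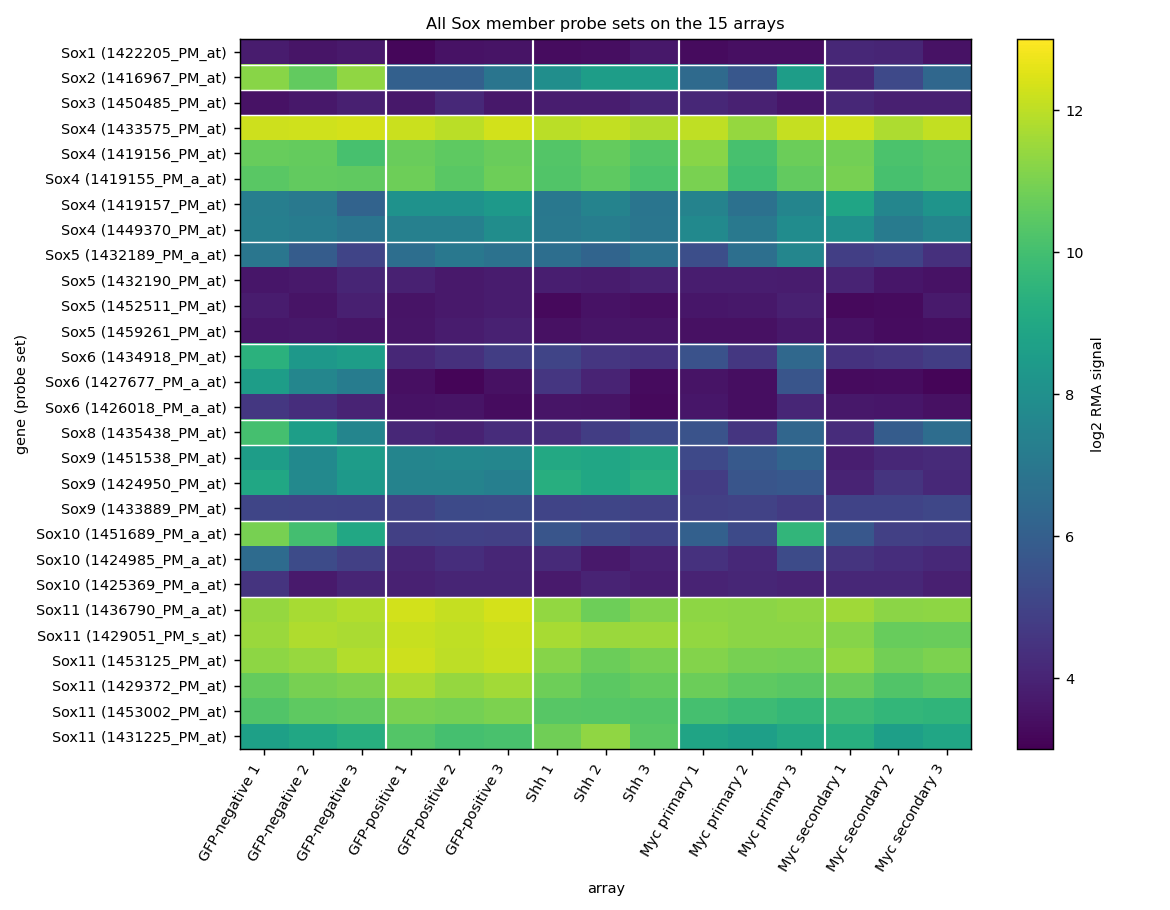
Log2 RMA signal of all 28 member probe sets (rows, grouped by gene) on the 15 arrays (columns, grouped by source). Colour runs from dark (low) to yellow (high), and the Myc primary 3 array is brighter than its 2 partners for Sox2, Sox6 and Sox10.

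A check of the groups against marker genes bore on how these values read. The 7 measured granule neuron progenitor markers, Atoh1 among them, were all higher in GFP-positive than in GFP-negative cells and all lower in Myc primary than in Shh tumours. Atoh1, whose reporter defined the sort, averaged 8.92 in GFP-positive and 4.09 in GFP-negative cells, and 9.74 in Shh and 4.62 in Myc primary tumours. The GFP-negative cells were a mixture: the summed signal of 9 oligodendrocyte lineage markers was 12.92 to 13.78 (log2) there against 9.05 to 9.45 in GFP-positive cells. The sum of 10 astroglial markers was 13.60 to 14.69 against 8.92 to 9.24, and that of 7 microglial markers 12.25 to 13.62 against 6.8 to 7.17. For 6 GABAergic and Purkinje neuron markers it was 9.67 to 10.26 in GFP-positive cells, 8.45 to 9.78 in GFP-negative cells and 6.11 to 6.34 across the tumours. In either sorted population 3 of the 6 were above background on average. The GFP-positive cells thus also carried signal from beyond the granule lineage. In bulk RNA, fewer cells of a type and less RNA per cell cannot be told apart. Array Myc primary 3 stood apart from its group, with an oligodendrocyte sum of 12.68 against 9.54 and 8.11 in Myc primary 1 and 2. All 9 of those markers, all 7 endothelial and 5 of 6 fibroblast markers were highest within the group on that array. Of the astroglial markers 5 of 10 were, and of the microglial markers 0 of 7. The astroglial sums on Myc primary 1, 2 and 3 were 11.07, 10.12 and 11.52, so for these markers array 2 was the lowest and array 1 lay near array 3. GFP-negative 3 and Myc secondary 1 had also been found apart from their groups in earlier work on these data, and values without them are given beside the results that they move.

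Counts over the 28 probe sets differed in size and direction between the comparisons, which share arrays. Several probe sets of 1 gene are counted separately here and are not separate members of the family. In Myc primary against Shh tumours 4 of 28 fell (2 of Sox9 and 2 of Sox11) and none rose, where 7.19% of all probe sets fell and 7.22% rose. Between Myc secondary and Myc primary tumours 1 of 28 fell and none rose, where 0.533% fell and 1.11% rose. In GFP-positive against GFP-negative cells 7 rose, 6 of them probe sets of Sox11, and 8 fell, where 14.0% rose and 11.7% fell. This count of 15 of 28 became 2 that rose and 9 that fell after cyclic loess, and 6 changed (1 rose and 5 fell) with a term for the run of sample title numbers, which cannot be told apart from group except through GFP-negative 3. Of all probe sets 25.7% changed in the fit of all groups, 23.9% after cyclic loess and 26.1% with the run term. Shh tumours against GFP-positive cells gave 2 that rose (all Sox9) and 5 that fell (all Sox11), where 4.26% rose and 4.28% fell. With the run term 1 remained past the threshold, and 4.39% of all probe sets changed. For Myc primary tumours against GFP-positive cells 8 fell (6 of Sox11 and 2 of Sox9) and none rose, where 11.4% fell and 12.4% rose. With the run term 4 fell, and 15.4% of all probe sets changed. By the brightest probe set 2 of 10 genes fell there, where 10.3% of all genes did. Against GFP-negative cells 10 probe sets fell and none rose in the Myc primary tumours, where 12.8% fell and 17.6% rose. When only the 6 arrays of the comparison were fitted 6 fell, and 20.3% of all probe sets changed. Medians of the member differences were 0.05, -0.11, 0.06, -0.16, -0.10 and -0.33 in this order of comparisons, and over all probe sets they were 0.06, 0, 0.07, -0.02, 0.03 and 0.05. Over genes and all 10 contrasts between the groups, 33 of 100 pairs of gene and contrast passed, where 22.2% of such pairs passed over all genes. These were 9 for Sox9, 5 each for Sox2 and Sox11, 4 each for Sox6, Sox8 and Sox10, and 2 for Sox5.

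**Figure D3:**
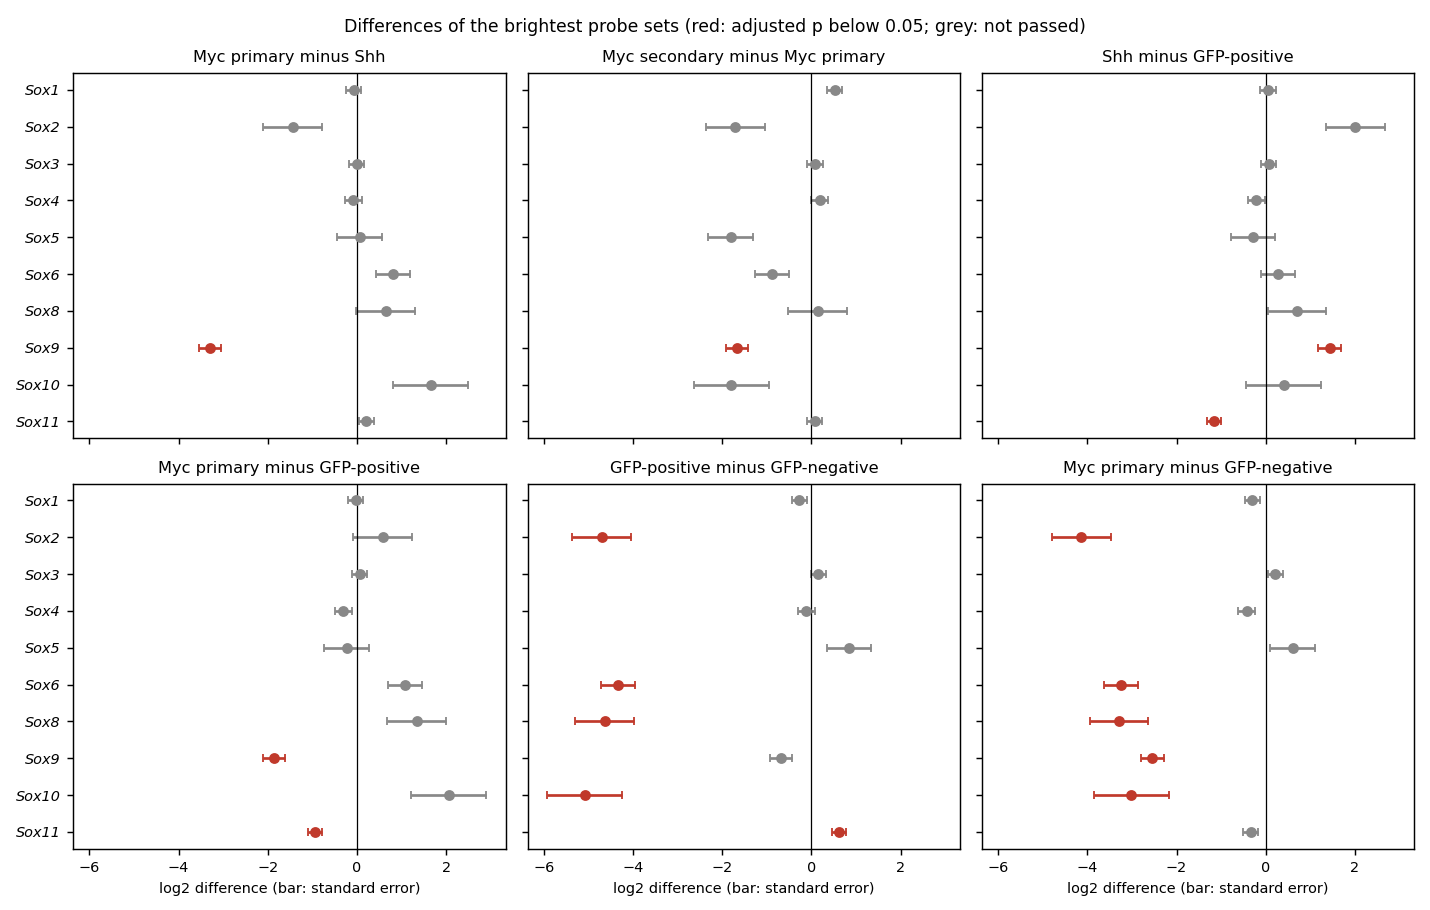
Log2 differences of the brightest probe set of each Sox gene in 6 comparisons (horizontal axis, with bars for the standard error of the fit). Red points passed an adjusted p of 0.05 and grey points did not; Sox9 is the only gene in red in the upper left and upper middle panels, with -3.29 in Myc primary minus Shh tumours.

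Sox2, the SoxB1 gene of neural stem cells, was highest in GFP-negative cells and lay about 4 to 5 log2 units lower in GFP-positive cells and in Myc primary tumours. It lies on chromosome 3 at 34649995 to 34652461 (GRCm38.p6). Its values were 11.22, 10.59 and 11.33 in GFP-negative cells and 6.06, 6.08 and 6.90 in GFP-positive cells. In Shh tumours they were 7.96, 8.58 and 8.53. Every GFP-negative array stood above every other array of the series, and every Shh array above every GFP-positive array. The Myc primary tumours gave 6.47, 5.70 and 8.58, and the Myc secondary tumours 4.08, 5.21 and 6.33. The highest Myc primary value, on array 3, was level with the Shh tumours, while the other two lay below them.

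Sox2 fell by 4.70 ± 0.66 (SE) in GFP-positive against GFP-negative cells (adjusted p = 0.00019). Against the same GFP-negative arrays it differed by -4.13 ± 0.66 in Myc primary tumours (adjusted p = 0.00039), by -5.84 in Myc secondary tumours (adjusted p = 2.1e-05) and by -2.69 in Shh tumours (adjusted p = 0.0089). Within the tumours, Sox2 differed by -3.15 ± 0.66 in Myc secondary against Shh tumours (adjusted p = 0.0041), a call that the run term ended (-3.58, adjusted p = 0.077). The difference of -1.44 ± 0.66 between Myc primary and Shh tumours did not pass (adjusted p = 0.18). Without Myc primary 3 it was -2.27 with an adjusted p of 0.017, and the mean of the Myc primary tumours was 6.08 in place of 6.92. Shh tumours exceeded GFP-positive cells by 2.01 ± 0.66 with no overlap of arrays, which did not pass in the fit of all groups (adjusted p = 0.082). It passed on the 6 arrays of the comparison alone (adjusted p = 0.0044), with array weights (adjusted p = 0.01) and in the fit without Myc primary 3 (adjusted p = 0.023). The difference itself was 2.01, 1.98 and 2.01. Of all probe sets 19.0%, 23.2% and 8.33% changed in these settings, against 8.54% in the fit of all groups. Neither Myc secondary against Myc primary tumours (-1.71, adjusted p = 0.25) nor Myc primary tumours against GFP-positive cells (0.57, adjusted p = 0.61) passed.

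A list of 14 SoxB1 partners and neural stem cell genes, all measured, gave the surroundings of Sox2. In GFP-positive against GFP-negative cells 3 rose and 6 fell, with a median of -0.75 against 0.04 over all genes, of which 12.5% rose and 13.8% fell by their brightest probe set. Notch1, the receptor that keeps neural progenitors undifferentiated, fell by 4.94, and its target genes Hes1 and Hes5 changed by -3.36 and -3.17. Chd7, a chromatin remodeller that partners Sox2, rose by 0.91. In Myc primary against Shh tumours none rose and 5 fell (median -0.32 against 0.08, with 8.25% of all genes up and 7.20% down). These were Chd7 (-1.55), Pou3f3 (-2.09), a POU factor that binds beside Sox2, Lhx2 (-2.61), Hes1 (-1.95) and Pax6 (-1.98). In Myc secondary against Myc primary tumours 1 fell, Pou3f3 (-4.00, adjusted p = 0.0006), and none rose, where 0.731% of all genes fell and 0.427% rose. Shh tumours against GFP-positive cells gave 2 that rose and none that fell (median 0.02 against -0.01, 4.88% of genes up and 3.12% down), namely Lhx2 (3.64) and Hes1 (2.28). Myc primary tumours gave 2 that rose and 3 that fell against GFP-positive cells (median 0.25 against 0.06, 14.4% of genes up and 10.3% down). Against GFP-negative cells they gave 1 that rose and 8 that fell (median -1.31 against 0.05, 18.8% of genes up and 14.5% down), among them Hes5 (-2.79), Pou3f3 (-2.79) and Notch1 (-3.34).

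Of the SoxC genes, Sox4 was bright everywhere and did not differ beyond the threshold in any of the 10 contrasts by its brightest probe set. Sox4 lies on chromosome 13 at 28948919 to 28953699, and its group means ran from 11.86 in Myc primary tumours to 12.28 in GFP-negative cells. The single Sox4 values lay between 11.42 and 12.35, and the groups overlapped or lay within 0.43 of each other in mean. The difference between Myc primary and Shh tumours was -0.09 ± 0.19, and between GFP-positive and GFP-negative cells it was -0.12 ± 0.19. Of the other 4 probe sets, 1419157_PM_at, read 8.10, 8.11 and 8.36 in GFP-positive and 7.29, 7.06 and 6.2 in GFP-negative cells. It rose there by 1.34 ± 0.35 (adjusted p = 0.012), while the remaining 3 and the brightest did not pass. The same probe set was higher in Myc secondary tumours, at 8.88, 7.58 and 8.16, than in GFP-negative cells (1.36, adjusted p = 0.0082) and Shh tumours (1.09, adjusted p = 0.04). Without the 3 arrays that stood apart neither passed (0.69, adjusted p = 0.081, and 0.75, adjusted p = 0.057), and the second ended in 9 of 23 other settings, also without Myc secondary 1 (0.75, adjusted p = 0.14), Shh 1 (1.04, adjusted p = 0.11) or Shh 3 (0.97, adjusted p = 0.12). Its difference of -1.08 between Shh tumours and GFP-positive cells (adjusted p = 0.079) passed in 7 of 23 other settings, among them cyclic loess, median centring and the 6 arrays of the comparison alone (adjusted p = 0.0077). On those 6 arrays 19.0% of all probe sets changed, against 8.54% in the fit of all groups.

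Sox11, on chromosome 12 at 27334268 to 27342718, was highest in GFP-positive cells and lower in all 3 tumour groups. Its brightest probe set, 1436790_PM_a_at, read 12.32, 12.13 and 12.34 in GFP-positive and 11.40, 11.68 and 11.86 in GFP-negative cells. The tumours gave 11.36, 10.79 and 11.16 (Shh), 11.30, 11.28 and 11.35 (Myc primary) and 11.57, 11.25 and 11.32 (Myc secondary). No array of another group reached the lowest GFP-positive array, and the 3 tumour groups overlapped for this probe set. Against GFP-positive cells Sox11 changed by -1.16 ± 0.16 in Shh tumours (adjusted p = 0.0009), by -0.95 ± 0.16 in Myc primary tumours (adjusted p = 0.00086) and by -0.88 in Myc secondary tumours (adjusted p = 0.0014). Of its 6 probe sets, 5 fell in Shh, 6 in Myc primary and 6 in Myc secondary tumours, where 11.1% of all probe sets fell in the last comparison. In GFP-positive against GFP-negative cells it rose by 0.62 ± 0.16 (adjusted p = 0.012), with all 6 probe sets past the threshold.

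These Sox11 differences were small beside those of Sox2 and moved with the scaling. After cyclic loess the rise over GFP-negative cells was 0.40 (adjusted p = 0.10) and 1 of 6 probe sets passed. The run term left it at 0.41 (adjusted p = 0.19) with 0 of 6 by limma (3 of 6 at an unadjusted p under 0.05), and took the falls in Shh and Myc primary tumours to -0.84 (adjusted p = 0.10) and -0.63 (adjusted p = 0.13). Leaving out GFP-negative 1, GFP-positive 1 or GFP-positive 3 gave 4 of 6 probe sets in the comparison of the sorted cells. Without GFP-positive 1 or GFP-positive 3 the falls in Shh tumours numbered 3 of 6. Between Myc primary and Shh tumours the brightest probe set gave 0.21 ± 0.16 (adjusted p = 0.46).

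The 6 Sox11 probe sets differed from each other in the Shh tumours. Probe set 1431225_PM_at read 10.82, 11.35 and 10.43 in Shh tumours, against 8.84, 8.66 and 9.04 in Myc primary and 9.26, 8.65 and 8.93 in Myc secondary tumours. In the sorted cells it read 10.32, 10.06 and 10.14 (GFP-positive) and 8.70, 8.94 and 9.27 (GFP-negative). Shh tumours and GFP-positive cells were thus high for this probe set, and all the other arrays were low without overlap. It fell by 2.02 ± 0.23 in Myc primary against Shh tumours (adjusted p = 0.00013) and was 1.90 ± 0.23 higher in Shh tumours than in GFP-negative cells (adjusted p = 8.5e-05). The brightest probe set instead gave -0.54 in that comparison (adjusted p = 0.025), and the mean of the 6 probe sets gave 0.05 (adjusted p = 0.83). The fall of the brightest probe set also ended with median centring (adjusted p = 0.14), on the 6 arrays of the comparison (0.12), with the run term (0.084), without the 3 arrays that stood apart (0.076) and without Shh 2 (-0.38, adjusted p = 0.11), GFP-negative 2 (adjusted p = 0.063) or GFP-negative 3 (adjusted p = 0.084). Over the 15 arrays these 2 probe sets correlated at r = 0.05, whereas the brightest correlated at 0.70 to 0.97 with the remaining 4. A further probe set, 1453002_PM_at, fell by 0.50 ± 0.13 in Myc primary against Shh tumours (adjusted p = 0.021). That call ended without Myc primary 2 (adjusted p = 0.053), Myc primary 3 (0.083), Shh 1 (0.07) or Shh 2 (0.059), each an adjusted p. In Myc secondary against Shh tumours 3 of the 6 probe sets fell, each without overlap of arrays, where 3179 of all 28898 probe sets fell. These were 1431225_PM_at (-1.93 ± 0.23, adjusted p = 9.9e-05), 1429051_PM_s_at (-0.70 ± 0.15, adjusted p = 0.0043) and 1453002_PM_at (-0.69 ± 0.13, adjusted p = 0.0022). The brightest did not pass there (0.28 ± 0.16, adjusted p = 0.25). Which transcript each probe set reads was not analysed here.

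**Figure D4:**
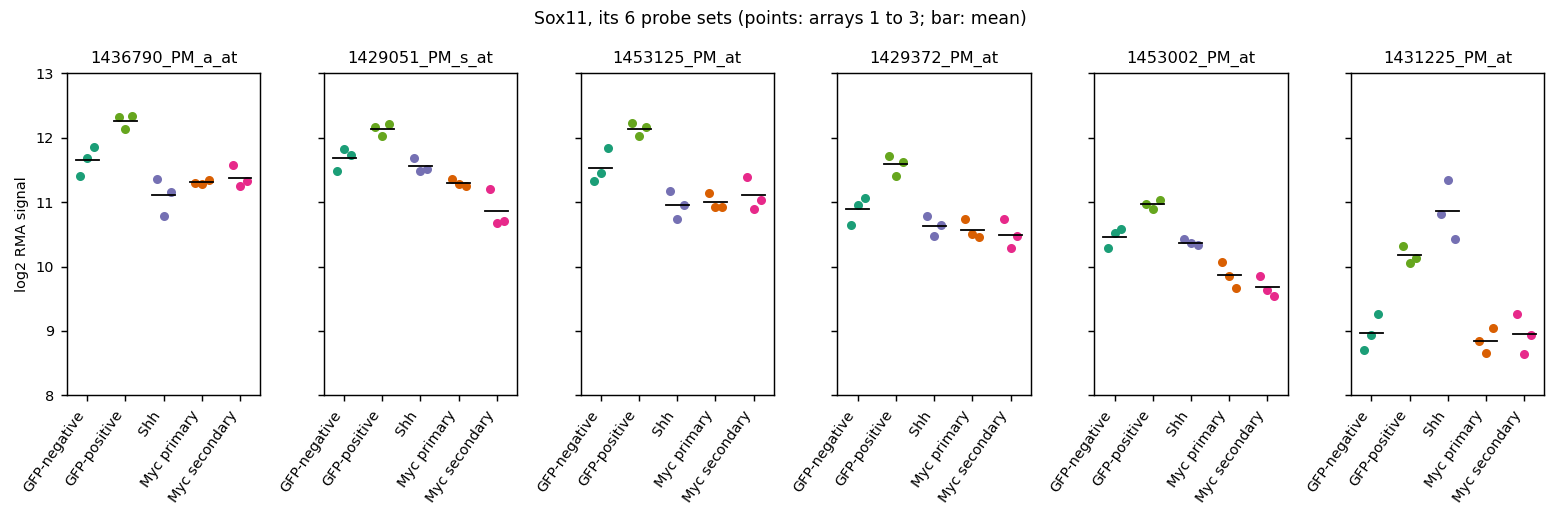
Log2 RMA signal of the 6 Sox11 probe sets (1 panel each) in the 5 groups, with 1 point per array and a bar at the mean. In 5 panels the GFP-positive arrays are highest, and in the panel of 1431225_PM_at the Shh tumours, at 10.43 to 11.35, are above the GFP-positive cells, at 10.06 to 10.32.

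A list of 12 SoxC targets and genes of immature neurons had 11 measured genes (Dcx was not). In GFP-positive against GFP-negative cells 7 rose, none fell and 4 did not pass, where 12.5% of all genes rose and 13.8% fell (median 0.57 against 0.04 over all genes). Tubb3, the neuronal tubulin and a known target of Sox4 and Sox11, rose by 3.54, Stmn2 by 4.93, Neurod1 by 4.36 and Elavl3 by 1.86. In Myc primary tumours against GFP-positive cells none rose and 8 fell, where 14.4% of all genes rose and 10.3% fell (median -1.42 against 0.06), with the cell adhesion molecule Ncam1 at -1.54 and Dpysl3, which acts in neurite growth, at -3.12. In Shh tumours against GFP-positive cells 3 fell, Stmn1 (-0.46), Dpysl3 (-1.98) and Tubb3 (-1.15), and none rose, where 3.12% of all genes fell and 4.88% rose (median -0.79 against -0.01). Between Myc primary and Shh tumours 2 fell, Ncam1 (-1.18) and Prox1 (-1.91), and none rose, where 7.20% fell and 8.25% rose (median -0.76 against 0.08). Myc secondary against Myc primary tumours gave 0 of 11 by limma at the adjusted threshold and 4 at an unadjusted p under 0.05 (median -0.27 against -0.03), with Ncam1 at an adjusted p of 0.072. Against GFP-negative cells the Myc primary tumours had 5 that rose and 3 that fell, where 18.8% rose and 14.5% fell (median -0.15 against 0.05). Without the 3 arrays that stood apart 5 fell in Shh tumours against GFP-positive cells, 5 fell in Myc primary against Shh tumours and 1 rose in Myc secondary against Myc primary tumours. In that setting 16.8%, 21.5% and 2.82% of all probe sets changed in these comparisons, against 8.54%, 14.4% and 1.64% on all 15 arrays.

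Of the SoxD genes, Sox5, on chromosome 6 at 143828425 to 144782287, was lowest in Myc secondary tumours. It read 4.85, 5.02 and 4.39 there, around the background, and 6.62, 7.0 and 6.76 in GFP-positive cells. The Shh tumours gave 6.6, 6.23 and 6.68, the Myc primary tumours 5.42, 6.67 and 7.58, and the GFP-negative cells 6.92, 5.90 and 5.05. No Myc secondary array reached any other array of the series. The differences were -2.04 ± 0.50 from GFP-positive cells (adjusted p = 0.0088) and -1.75 ± 0.50 from Shh tumours (adjusted p = 0.023). The latter ended with the run term (-0.39, adjusted p = 0.80) and without Shh 1 (-1.71, adjusted p = 0.067), Shh 3 (-1.67, adjusted p = 0.067) or Myc secondary 3 (-1.57, adjusted p = 0.078). Against Myc primary tumours the difference was -1.81 ± 0.50 and did not pass (adjusted p = 0.097), except with array weights (-1.94, adjusted p = 0.015) or without Myc primary 1 (-2.38, adjusted p = 0.021). The mean of 4.75 in Myc secondary tumours lay just under the background. Without the 3 arrays that stood apart the Myc primary mean was 6.05 in place of 6.56, the difference between the Myc tumours was -1.35 (adjusted p = 0.14), and that of Myc secondary tumours from GFP-negative cells went from -1.21 (adjusted p = 0.077) to -1.71 (adjusted p = 0.0093). The other 3 Sox5 probe sets lay under the background in every group mean.

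Sox6, on chromosome 7 at 115470872 to 116040776, was highest in the GFP-negative cells, where it read 9.40, 8.34 and 8.56. In GFP-positive cells it read 4.12, 4.38 and 4.82, in Shh tumours 5.07, 4.58 and 4.48 and in Myc secondary tumours 4.46, 4.60 and 4.82. The Myc primary tumours read 5.53, 4.63 and 6.38, and their array 3 was the highest outside the GFP-negative cells. Against GFP-negative cells Sox6 changed by -4.33 ± 0.38 in GFP-positive cells (adjusted p = 5.3e-06), by -3.25 ± 0.38 in Myc primary tumours (adjusted p = 4.1e-05), by -4.06 in Shh tumours (adjusted p = 1.3e-05) and by -4.14 in Myc secondary tumours (adjusted p = 4.9e-06). Another probe set, 1427677_PM_a_at, correlated with it at r = 0.97 and gave -4.45 and -3.60 in the first 2 of these comparisons. The remaining one, 1426018_PM_a_at, lay under the background on all 15 arrays, so that its calls in the same comparisons (-0.84, adjusted p = 0.0051, and -0.62, adjusted p = 0.025) compare levels near the floor. The means of 4.44 (GFP-positive), 4.71 (Shh) and 4.63 (Myc secondary) lay under the background, so these differences have the array's floor at their lower end. Myc primary tumours exceeded GFP-positive cells by 1.08 ± 0.38 (adjusted p = 0.061), which passed without Myc primary 2 (1.52, adjusted p = 0.0079) and, at 1.08, without GFP-negative 1 (adjusted p = 0.046). Without Myc primary 3 the Myc primary mean was 5.08 in place of 5.51.

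The SoxE genes Sox8 and Sox10, like Sox6, had their highest mean in GFP-negative cells. Sox10, on chromosome 15 at 79154913 to 79164490, read 10.93, 10.03 and 8.99 in GFP-negative cells and 4.89, 4.94 and 4.88 in GFP-positive cells. In Shh tumours it read 5.64, 5.27 and 5.01, and in Myc secondary tumours 5.73, 4.91 and 4.82. The Myc primary tumours read 6.06, 5.23 and 9.58, so that array 3 lay within the range of the GFP-negative cells and the other two near the rest. Against GFP-negative cells Sox10 changed by -5.08 ± 0.84 in GFP-positive cells (adjusted p = 0.00069), by -4.67 in Shh tumours (adjusted p = 0.0013) and by -4.83 in Myc secondary tumours (adjusted p = 0.0006). In Myc primary tumours it fell by 3.02 ± 0.84 (adjusted p = 0.015). That call ended without Myc primary 1 (-2.58, adjusted p = 0.063), Myc primary 2 (-2.16, adjusted p = 0.069) or GFP-negative 1 (-2.55, adjusted p = 0.061) and on the 6 arrays of the comparison (adjusted p = 0.12). Without the 3 arrays that stood apart it was -4.83 (adjusted p = 5.6e-06), with means of 5.65 in place of 6.96 (Myc primary) and 10.48 in place of 9.98 (GFP-negative). The mean of the 3 Sox10 probe sets gave smaller differences, which also passed: -2.2 in GFP-positive cells, -2.17 in Shh, -2.04 in Myc secondary and -1.34 in Myc primary tumours. Probe set 1424985_PM_a_at was above background on average in GFP-negative cells alone (5.56) and fell by 1.44 ± 0.35 in GFP-positive cells (adjusted p = 0.0093), which ended with the run term (-0.78, adjusted p = 0.23). It did not pass in Myc primary tumours (-0.94, adjusted p = 0.062), and 1425369_PM_a_at lay under the background in every group mean. Neither the excess of 1.65 ± 0.84 over Shh tumours (adjusted p = 0.23) nor that of 2.05 ± 0.84 over GFP-positive cells (adjusted p = 0.10) passed. The latter passed with array weights (2.23, adjusted p = 0.021) and without Myc primary 2 (2.92, adjusted p = 0.022).

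Sox8, on chromosome 17 at 25565893 to 25570686, read 10.07, 8.61 and 7.56 in GFP-negative cells and 4.13, 3.97 and 4.26 in GFP-positive cells. The Shh tumours gave 4.36, 4.83 and 5.28, the Myc primary tumours 5.55, 4.53 and 6.29, and the Myc secondary tumours 4.28, 5.92 and 6.59. GFP-negative arrays lay above all others, and the Myc secondary tumours had 2 arrays above background and 1 below. Sox8 fell by 4.63 ± 0.66 in GFP-positive against GFP-negative cells (adjusted p = 0.00021), to a mean of 4.12 under the background. Against the same cells it changed by -3.29 in Myc primary tumours (adjusted p = 0.002), by -3.92 in Shh tumours (adjusted p = 0.00081) and by -3.15 in Myc secondary tumours (adjusted p = 0.0022). With the run term the last was -1.96 (adjusted p = 0.099). Without the 3 arrays that stood apart the GFP-negative mean was 9.34 in place of 8.75 and the Myc primary mean 5.04 in place of 5.46, and the Myc primary difference was -4.30 (adjusted p = 0.00011). Myc secondary tumours exceeded GFP-positive cells by 1.48 ± 0.66 (adjusted p = 0.14). This passed without Myc secondary 1 (2.14, adjusted p = 0.026) and with array weights (1.94, adjusted p = 0.00058). Myc primary tumours exceeded them by 1.34 (adjusted p = 0.17), and the run term turned that difference to -0.44 (adjusted p = 0.81).

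Of the 9 measured markers of the oligodendrocyte lineage, 8 fell and 1, Pdgfra, rose in GFP-positive against GFP-negative cells, where Sox6, Sox8 and Sox10 fell. Their summed signal was 12.92 to 13.78 in GFP-negative cells, 9.05 to 9.45 in GFP-positive cells, 9.20 to 9.74 in Shh tumours and 7.83 to 8.36 in Myc secondary tumours. The sum was lower in Myc secondary tumours than in GFP-positive cells through Pdgfra alone, with means of 4.46 and 8.69. Every other marker had a higher mean in Myc secondary tumours, such as Mbp (6.02 against 5.39) and Cldn11 (6.28 against 5.12). The means of Sox6 (4.63 against 4.44), Sox8 (5.60 against 4.12) and Sox10 (5.16 against 4.91) were not lower there either. Of the 9 markers, 9 had a mean above background in GFP-negative cells and 4 in GFP-positive cells. In Shh tumours 6 did, in Myc secondary tumours 3 and in Myc primary tumours 8. On Myc primary 3, Mbp and Olig1 read 11.30 and 9.27, against 8.43 and 5.09 on Myc primary 1 and 6.12 and 4.43 on Myc primary 2. Astroglial markers moved too, with 9 of 10 lower in GFP-positive than in GFP-negative cells. Their part in the results for Sox2, Sox6, Sox8 and Sox10 was not tested.

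**Figure D5:**
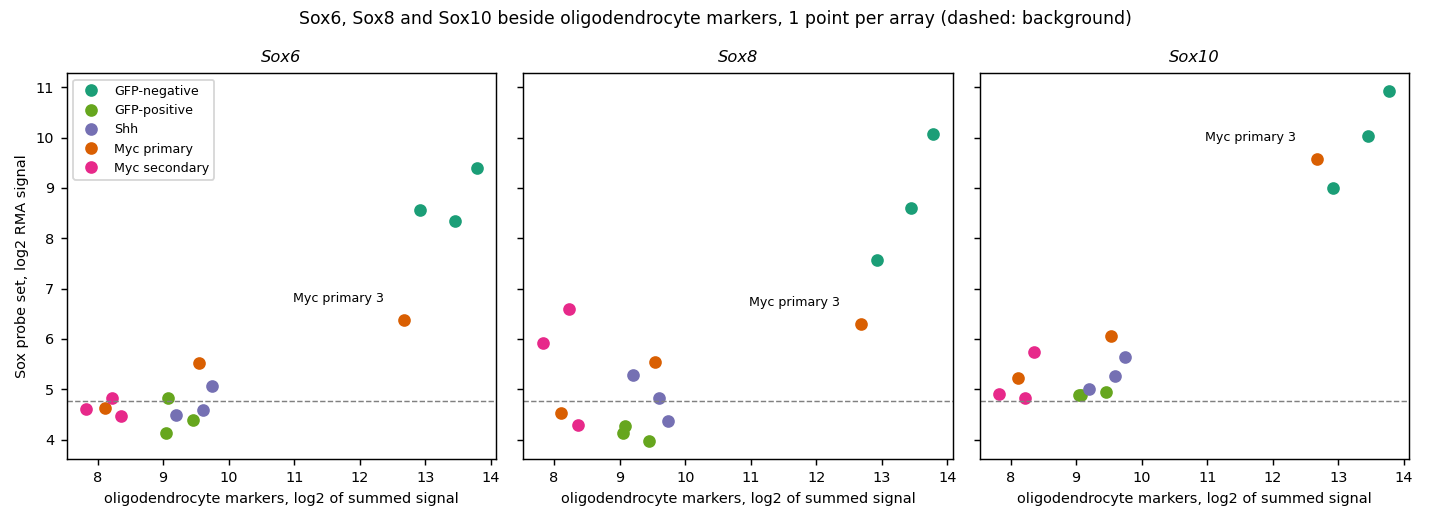
Log2 RMA signal of Sox6, Sox8 and Sox10 (vertical axes) against the log2 of the summed signal of 9 oligodendrocyte lineage markers (horizontal axes), 1 point per array. The GFP-negative arrays and Myc primary 3, at 12.68, lie to the right of all the others, which are at or below 9.74; for Sox8 the Myc secondary arrays range from 4.28 to 6.59 at low marker sums.

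Sox9, the SoxE gene of astroglia and Bergmann glia, on chromosome 11 at 112782210 to 112787757, behaved differently from its relatives and passed in 9 of the 10 contrasts. It read 9.04, 8.93 and 9.11 in Shh tumours, and 5.20, 5.80 and 6.22 in Myc primary tumours. In Myc secondary tumours it read 3.85, 4.13 and 4.21, all under the background. The sorted cells gave 8.58, 7.75 and 8.52 (GFP-negative) and 7.56, 7.64 and 7.60 (GFP-positive). The 3 tumour groups did not overlap, and every Shh array stood above every other array of the series. SDs were 0.09 in Shh tumours, 0.51 in Myc primary tumours, 0.19 in Myc secondary tumours, 0.47 in GFP-negative cells and 0.04 in GFP-positive cells.

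Sox9 fell by 3.29 ± 0.25 in Myc primary against Shh tumours (adjusted p = 4.7e-06), and it changed by -4.96 ± 0.25 in Myc secondary against Shh tumours (adjusted p = 8.7e-08). The further change of -1.67 ± 0.25 from Myc primary to Myc secondary tumours (adjusted p = 0.0062) ends at a mean of 4.07, under the background. It did not pass on the 6 arrays of the comparison alone (adjusted p = 0.096), and the mean of the probe sets gave -0.88 (adjusted p = 0.034). Against GFP-positive cells Sox9 rose by 1.43 ± 0.25 in Shh tumours (adjusted p = 0.0036) and fell by 1.86 ± 0.25 in Myc primary tumours (adjusted p = 0.00017). Against GFP-negative cells it fell by 2.54 ± 0.25 in Myc primary tumours (adjusted p = 1e-05). Its excess of 0.74 ± 0.25 in Shh tumours over GFP-negative cells (adjusted p = 0.043) stood at the threshold: it ended in 13 of 25 other settings, among them cyclic loess (0.42, adjusted p = 0.27) and the fit without GFP-negative 2 (0.48, adjusted p = 0.17). GFP-positive and GFP-negative cells differed by -0.68 ± 0.25, which did not pass (adjusted p = 0.062). Probe set 1424950_PM_at correlated with the brightest at r = 0.99 and read 9.28, 8.94 and 9.32 in Shh against 4.79, 5.62 and 5.74 in Myc primary tumours, a difference of -3.8 ± 0.30. Its difference of -1.15 ± 0.30 between Myc secondary and Myc primary tumours did not pass (adjusted p = 0.078). Unlike the brightest, this probe set passed between GFP-positive and GFP-negative cells (-0.92 ± 0.30, adjusted p = 0.038). That call ended in several settings, such as without GFP-negative 1 (-0.61, adjusted p = 0.15). Its excess in Shh tumours over GFP-negative cells did not pass (0.84 ± 0.30, adjusted p = 0.055), and GFP-negative 1 (8.96) lay above Shh 2 (8.94). The remaining probe set, 1433889_PM_at, stayed between group means of 4.86 and 5.17.

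A list of SoxE and SoxD glial targets and cofactors had 13 measured genes. In GFP-positive against GFP-negative cells 2 rose and 5 fell, where 12.5% of all genes rose and 13.8% fell (median -0.74 against 0.04 over all genes). Olig1, the oligodendrocyte lineage factor, changed by -7.10, the myelin gene Mbp by -6.82 and Nkx2-2, which acts with Olig2 in that lineage, by -4.33. Pdgfra, the receptor of oligodendrocyte precursors, instead rose by 3.69, with means of 8.69 in GFP-positive and 5.0 in GFP-negative cells. In Myc primary against Shh tumours 3 fell and none rose, where 7.20% fell and 8.25% rose (median 0.13 against 0.08): Pdgfra (-2.90), and Nfia and Nfib, gliogenic factors that are also expressed in granule neuron progenitors, at -1.01 and -1.0. In Myc secondary against Myc primary tumours 0 of 13 passed by limma, and 6 were at an unadjusted p under 0.05 (median -1.22 against -0.03), with Nfia at an adjusted p of 0.061. The Myc primary means of Mbp (8.61 ± 2.59 SD) and Olig1 (6.27 ± 2.62 SD) rest on the array 3 values given above. Shh tumours against GFP-positive cells gave 1 that rose, Olig1 (3.9, adjusted p = 0.015), and none that fell, where 4.88% rose and 3.12% fell (median -0.10 against -0.01). Myc primary tumours had 3 that rose and 4 that fell against GFP-positive cells, where 14.4% rose and 10.3% fell (median 0.47 against 0.06). Against GFP-negative cells none rose and 7 fell, where 18.8% rose and 14.5% fell (median -0.67 against 0.05). Without the 3 arrays that stood apart these counts were 3 and 4 (median 0.18), and 0 and 8 (median -0.72). In the same setting 5 fell in Myc primary against Shh tumours (median -0.24), 1 fell in Myc secondary against Myc primary tumours (median -0.58), and 2 rose and 1 fell in Shh tumours against GFP-positive cells. Of all probe sets 29.7%, 36.0%, 21.5%, 2.82% and 16.8% changed in that setting, in the order of these counts. On all 15 arrays it was 23.8%, 30.4%, 14.4%, 1.64% and 8.54%.

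By group means the order for Sox2 was GFP-negative, Shh, Myc primary, GFP-positive and Myc secondary, and only the step from GFP-negative to Shh passed between neighbours. For Sox6 and Sox10 the order was GFP-negative, Myc primary, Shh, Myc secondary and GFP-positive, and for Sox8 it was GFP-negative, Myc secondary, Myc primary, Shh and GFP-positive. In these 3 genes, too, only the first step passed. The Sox9 order was Shh, GFP-negative, GFP-positive, Myc primary and Myc secondary, in which every step passed except that between the sorted populations. For Sox11 only the first step, from GFP-positive to GFP-negative cells, passed, and for Sox4 and Sox5 no neighbours differed beyond the threshold.

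Over the 15 arrays the levels of Sox6 and Sox10 correlated at r = 0.94, those of Sox6 and Sox8 at 0.91, and those of Sox8 and Sox10 at 0.85. Sox2 correlated with Sox6 at 0.85, with Sox10 at 0.79 and with Sox9 at 0.70, while Sox9 and Sox8 gave 0.13 and Sox2 and Sox11 gave -0.09. These values describe arrays that share 5 group means and, in the first cases, the high GFP-negative arrays, and they carry no test. Among 10825 other genes with a group mean above background, those closest in pattern to Sox10 were Lims2 (r = 0.994), Cmtm5 (0.992) and the myelin enzyme gene Cnp (0.989). Sox6 was closest to Gpr37l1 (0.992), Acss1 and Zcchc24, and Sox8 to Slc9a3r1 (0.957), Caskin2 and Emid1. Sox9 was closest to Etv1 (0.979), an ETS factor gene whose means were 8.17 in Shh, 5.68 in Myc primary and 4.41 in Myc secondary tumours, and then to Klhl23 (0.967) and Flot1 (0.963). For Sox2 the closest were Acot2 (0.952), Acot1 (0.944) and Fez1 (0.941), and for Sox11 Dok4 (0.908), Macroh2a1 (0.899) and Slc6a5 (0.893). The weakest matches were those of Sox5, led by Smarcb1 (0.907), and of Sox4, led by Hspa5 (0.812).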

How the data were processed

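The deposited table holds log2 signals of 45141 probe sets, which the authors made by RMA in Partek 6.5, per the submitters' processing notes; the RMA settings are not given in the sources used here. Of these, 104 control probe sets, 15588 without a listed gene and 551 with several genes were left out. For 28689 of the remaining 28898 the symbol was updated through the GRCm38.p6 gene table, and 209 kept the listed one. Values were used as deposited. Groups were compared with limma 3.58.1 (lmFit, eBayes) in R 4.3.3, two-sided, in 1 one-way fit over 15 arrays (10 residual and 2.61 prior degrees of freedom), with Benjamini-Hochberg adjustment over all 28898 probe sets of a comparison. SEs come from that fit, and SDs from 3 arrays. The number of arrays limits the precision. The fit was tested on simulated data.

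From each list the 4 genes of smallest adjusted p could be named, and genes of like pattern were the 3 with the highest Pearson r, without predicted and Sox genes. The members and lists were chosen with earlier results of these data known, and where more than 4 genes of a list are named, the others were chosen after their values were seen. Alternatives were the brightest probe set alone, the mean of probe sets, a filter on dim probe sets (25% quantile, 3.70), cyclic loess, median centring, the 6 arrays of a comparison alone (4 residual degrees of freedom), robust variance with an intensity trend (statmod 1.5.0), array weights, a term for 2 runs of sample title numbers, leaving out 3 arrays found apart, and leaving out each array. Figures were drawn with matplotlib 3.10.9 under Python 3.11.15, from tables made with pandas 2.3.3 and numpy 2.4.6.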

Additional observations from a re-analysis of the deposited data

How the results depend on the processing

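Of the 33 differences of brightest probe sets that passed, 23 passed in the same direction in all 25 other settings, of which 15 left out 1 array; over all probe sets 47 of 86 did. With 1 probe set a gene, the counts of changed Sox genes were 1 (Myc primary against Shh), 5 (GFP-positive against GFP-negative), 2 (Shh against GFP-positive), 2 (Myc primary against GFP-positive) and 5 (Myc primary against GFP-negative), and with the mean of probe sets 2, 5, 2, 2 and 6, out of 10 genes in place of 28 probe sets. Of all genes 15.8%, 26.3%, 7.56%, 24.8% and 33.8% changed with 1 probe set a gene, in the same order. With the mean of probe sets it was 16.1%, 28.2%, 8.15%, 24.9% and 33.6%. The run term gave 6, 1 and 4 changed probe sets in GFP-positive against GFP-negative, Shh against GFP-positive and Myc primary against GFP-positive. Of all probe sets 26.1%, 4.39% and 15.4% changed with that term, against 25.7%, 8.54% and 23.8% without it. On the 6 arrays of a comparison alone, 6 changed in Myc primary against GFP-negative, where 20.3% of all probe sets changed, against 30.4% in the fit of all groups. Myc secondary against Myc primary gave 0 on its 6 arrays alone by limma (6 at an unadjusted p under 0.05), 4 with array weights and 2 without the 3 arrays found apart. Of all probe sets 0.315%, 4.99% and 2.82% changed in these settings, against 1.64% in the fit of all groups.

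Leaving out each array gave 3 to 4 changed probe sets (Myc primary against Shh), 1 to 3 (Myc secondary against Myc primary; 3 without Myc primary 1, and 2 without GFP-negative 1, GFP-negative 2 or Myc secondary 1), 12 to 16 (GFP-positive against GFP-negative), 5 to 8 (Shh against GFP-positive), 8 to 10 (Myc primary against GFP-positive) and 7 to 11 (Myc primary against GFP-negative), and 31 to 37 of 100 pairs of gene and contrast. Turned in sign were Sox8 in Myc primary against GFP-positive with the run term (-0.44) and Sox11 in Shh against GFP-negative with the mean of probe sets (0.05). Causes were not tested. Median centring moved the median difference of all probe sets from 0.07 to 0.304 in GFP-positive against GFP-negative cells and took the share of rises among all calls from 54.4% to 72.5%, and cyclic loess took it to 40.0%. No paired analysis was possible because replicate numbers were given in accession order. Signal under the background limits Sox1, Sox3 and the lowest groups of Sox5, Sox6, Sox8 and Sox9.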

Other observations

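Other Sox genes, a list of 9 that were all measured, added Sox18, a SoxF gene known from endothelial cells. It read 9.70, 9.56 and 10.71 in Shh tumours, 6.85, 7.01 and 6.35 in Myc primary tumours and 7.45, 7.70 and 7.40 in GFP-positive cells. Every Shh array was above every other array. Sox18 fell by 3.25 ± 0.39 in Myc primary against Shh tumours (adjusted p = 0.00018) and rose by 2.47 ± 0.39 in Shh tumours against GFP-positive cells (adjusted p = 0.0021). The 7 endothelial and mural markers had a summed signal of 7.97 to 9.02 in Shh and 9.25 to 11.18 in Myc primary tumours. In GFP-positive cells it was 6.92 to 7.38. Their sum in Shh tumours was thus below that of Myc primary tumours and above that of GFP-positive cells. Between the tumours 2 of the 7 were higher in Myc primary tumours and 0 lower at the threshold. Rgs5, the brightest in both, averaged 9.30 in Myc primary and 6.84 in Shh tumours, and Cldn5 6.63 and 6.58. The part of these markers in the Sox18 values was not tested. In GFP-positive against GFP-negative cells 1 of the 9 rose, the SoxC gene Sox12 (0.96), and 4 fell, Sox21 (-3.21), Sox7 (-2.44), Sox17 (-1.47) and Sox13 (-1.28), where 12.5% of all genes rose and 13.8% fell. The GFP-positive means of those that fell, 3.41, 4.32, 3.73 and 4.33 in this order, lay under the background, so the array's floor limits these differences. Between Myc primary and Shh tumours there was 1 rise, Sox13 (0.65), beside the fall of Sox18, where 8.25% of all genes rose and 7.20% fell, and Myc secondary against Myc primary tumours gave 0 of 9 by limma, and 0 of 9 at an unadjusted p under 0.05. Sox13 averaged 4.16 in Shh tumours, under the background, and 4.81 in Myc primary tumours, just above it.

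Sox2ot, the long noncoding RNA whose gene overlaps Sox2, was chosen after its values were seen. It read 8.71, 7.60 and 7.68 in GFP-negative cells, 6.71 on Myc primary 3, and 3.07 to 3.81 on the other 11 arrays, under the background. It fell by 4.53 ± 0.70 in GFP-positive against GFP-negative cells (adjusted p = 0.00039). In Shh tumours it read 3.39, 3.81 and 3.75, under the background, while the Sox2 probe set, at 7.96 to 8.58, was above it.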
